A study of Sus scrofa with 12 samples.

Results

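The miR-29 family was represented by 3 of the 800 miRNAs counted in fetal pig muscle, ssc-miR-29a, ssc-miR-29b and ssc-miR-29c. Members were taken by name alone, as each entry called ssc-miR-29 followed by the letter a, b or c, and all 3 had reads in each of the 6 small RNA libraries. The study compared longissimus muscle, the long muscle of the back, from fetuses of Large White sows given a calorie-restricted diet (RE) or a normal diet (NE) after mating to a boar of the same breed. The restricted diet held less energy, with less soybean oil and with added fiber. Gestation had lasted 35, 55 or 90 days (dg) when muscle was taken, which gives the groups RE35, NE35, RE55, NE55, RE90 and NE90. The study took 1 fetus from each of 4 sows per group, but how these fetuses entered the libraries is not given in the sources used here. Each group had 1 small RNA library and 1 mRNA library, so a test between 2 libraries compares those libraries and not the diets or stages, and no difference between them has a replicate check.

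MicroRNAs of the miR-29 family are short RNAs that guide Argonaute proteins to messenger RNAs with matching sites and lower their stability and translation. The members share the seed that chooses targets. In mammals the family is best known for holding down extracellular matrix genes, above all fibrillar and basement membrane collagens, elastin and fibrillin, and it also acts on the DNA methyltransferases DNMT3A and DNMT3B. In mouse muscle and myoblasts miR-29 favours differentiation, and low miR-29 goes with fibrosis. In pig, as in other mammals, the genes lie in pairs: the RefSeq annotation of Sscrofa11.1 places MIR29B-1 beside MIR29A and MIR29B-2 beside MIR29C. The mature forms of the family are close to each other in sequence, so the division of reads between miR-29a and miR-29c depends on how the authors assigned near-identical reads and is uncertain, whereas their sum is less so.

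The small RNA libraries held 1522142 to 3811231 reads on mature miRNAs, and the mRNA libraries 11091317 to 12985505 reads on genes. Muscle miRNAs and muscle genes were abundant in all 6 libraries of each kind, but NE35 stood apart. The 11 matched kidney and mesonephros genes summed to 370 RPKM in NE35 against 1.91 to 5.24 RPKM in the other mRNA libraries, and 10 of the 11 were highest there. The 5 kidney miRNAs, miR-192 among them, summed to 5015 TPM in NE35 against 46.7 to 72.2 TPM in the other small RNA libraries, and all 5 were highest there. Cartilage genes, 7 matched, summed to 271 RPKM in RE35 and 58.2 RPKM in NE35, and to 4.02 to 30.5 RPKM at later stages. Epithelial miRNAs, 2 matched, summed to 500 TPM in RE35 and 1104 TPM in NE35 and to at most 6.03 TPM later. Cartilage miRNAs, 2 matched, summed to 21612 TPM in RE35 and 14048 TPM in NE35, and to 771 to 2196 TPM later. Kidney markers thus ran with NE35. Epithelial miRNAs and cartilage markers ran with both libraries at 35 dg, the cartilage markers higher in RE35. The part of these tissues in the results at 35 dg was not tested.

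Among the members, miR-29a made up most of the family. Levels are given as reads and as TPM, which here means reads scaled to 1000000 reads on mature miRNAs. At 35 dg miR-29a had 305 reads (104 TPM) in RE35 and 711 reads (467 TPM) in NE35. At 55 dg it had 289 reads (143 TPM) in RE55 and 790 reads (258 TPM) in NE55. At 90 dg it had 1075 reads (282 TPM) in RE90 and 595 reads (232 TPM) in NE90. The level was thus lowest in RE35, next lowest in RE55 and highest in NE35, and RE90 was the only library of restricted fetuses above its normal counterpart. Ordered by reads within its library, miR-29a stood between 133 (NE35) and 199 (RE35) among 582 to 695 miRNAs with reads, which makes it a miRNA of moderate abundance in this muscle.

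**Figure D1:**
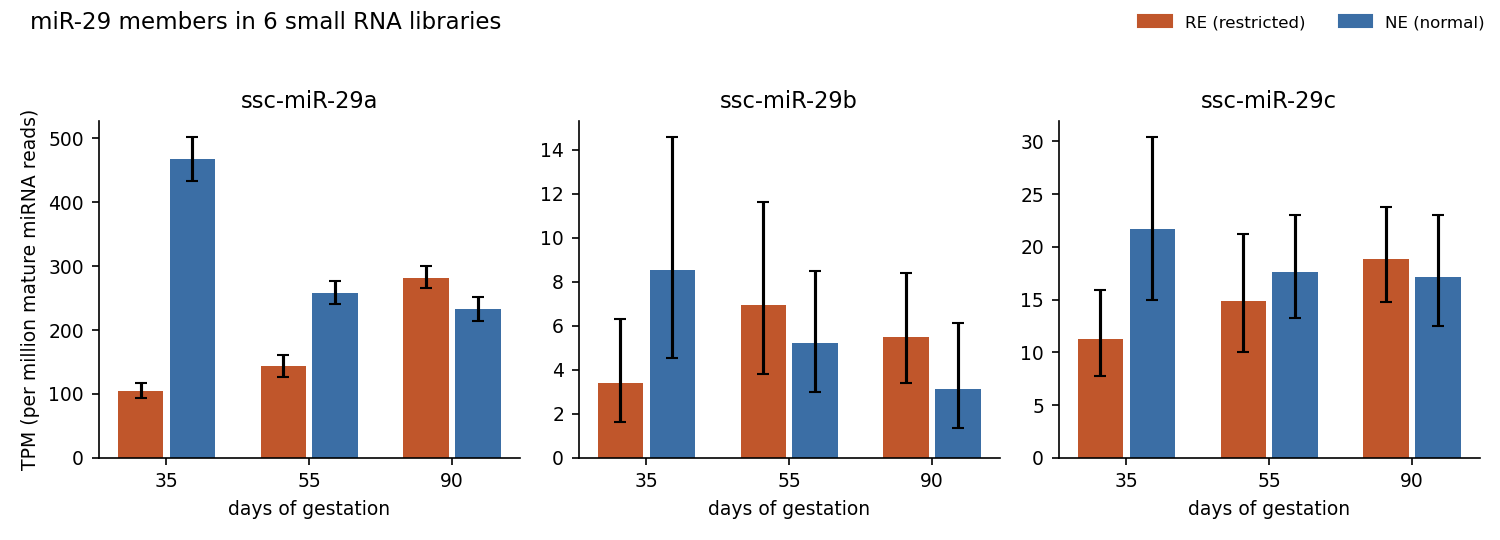
TPM of miR-29a, miR-29b and miR-29c (1 panel each, with its own axis from 0) in the 6 small RNA libraries, by days of gestation, RE left of NE; whiskers are 95% exact counting intervals. miR-29a runs between 104 TPM in RE35 and 467 TPM in NE35, whereas the whiskers of miR-29b, which has 8 to 21 reads, overlap throughout.

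miR-29c was far less abundant. At 35 dg it had 33 reads both in RE35 and in NE35, which are 11.3 TPM in the larger RE35 library and 21.7 TPM in the smaller NE35 library. At 55 dg it had 30 reads (14.9 TPM) in RE55 and 54 reads (17.6 TPM) in NE55. At 90 dg it had 72 reads (18.9 TPM) in RE90 and 44 reads (17.2 TPM) in NE90. Its 6 libraries fell in the same order as those of miR-29a, although no neighbouring pair in the order of miR-29c had a ratio whose 95% exact interval excluded 1.

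miR-29b was close to the limit of what these libraries can count. It had 10 reads (3.42 TPM) in RE35 and 13 reads (8.54 TPM) in NE35, 14 reads (6.93 TPM) in RE55 and 16 reads (5.22 TPM) in NE55, and 21 reads (5.51 TPM) in RE90 and 8 reads (3.12 TPM) in NE90. No neighbours in its order differed beyond counting error. Counting intervals here and below cover counting error only, since PCR reads without molecular identifiers are not independent molecules.

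The order of miR-29a had clear steps. From the top, NE35 exceeded RE90 by 1.66-fold (95% exact interval 1.50 to 1.82). RE90, NE55 and NE90 followed within 1.11-fold of their neighbours, with intervals that included 1. NE90 exceeded RE55 by 1.62-fold (1.41 to 1.87), and RE55 exceeded RE35 by 1.37-fold (1.16 to 1.62). At the later stages the libraries NE55, NE90 and RE90 thus lay close together, above RE55.

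The make-up of the family, which does not depend on how libraries are scaled, was dominated by miR-29a throughout. Of the family's reads, miR-29a took 87.6% in RE35 (95% Clopper-Pearson interval 83.7 to 90.9) and 93.9% in NE35 (92.0 to 95.5). It took 86.8% in RE55 (82.7 to 90.2) and 91.9% in NE55 (89.8 to 93.6), and 92.0% in both RE90 and NE90. miR-29c took 4.36% to 9.48% and miR-29b 1.24% to 4.20%. The ratio of miR-29a to miR-29c reads was 9.24 in RE35 (95% interval 6.44 to 13.7) and 21.5 in NE35 (15.2 to 31.5). The same ratio was 9.63 in RE55 (6.60 to 14.5) and 14.6 in NE55 (11.1 to 19.6), and at 90 dg it was 14.9 in RE90 (11.8 to 19.2) and 13.5 in NE90 (9.95 to 18.8). The intervals of RE35 and NE35 did not overlap, so that in these counts the lower miR-29a in RE35 was not matched in proportion by miR-29c. These intervals do not cover how near-identical reads were divided between miR-29a and miR-29c, which is uncertain.

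The first comparison asks how the family differed between restricted and normal fetuses at each stage. At 35 dg all 3 members were lower in RE35 than in NE35. miR-29a was 4.48-fold lower in RE35 (95% exact interval 3.91 to 5.13; two-sided Fisher's exact test on the reads, p = 6.62e-119, 5.71e-118 after Benjamini-Hochberg adjustment over the 397 miRNAs tested). Scaled to clean small RNA reads in place of mature miRNA reads, it was 2.83-fold lower (log2 ratio -1.50), below the printed interval. It passed the thresholds the study states for miRNAs, p under 0.01 with a fold above 2, and it was the 23rd lowest of those 397 miRNAs, 13.4% of which passed. miR-29b was 2.50-fold lower in RE35 (1.01 to 6.36; Fisher's exact test p = 0.0288) and miR-29c 1.92-fold lower (1.15 to 3.21; p = 0.00911), and neither passed both thresholds. With TMM scaling miR-29c passed both, at a log2 ratio of -1.02. With clean-read scaling the differences of miR-29b and miR-29c were lost. The folds were then 1.58 for miR-29b (Fisher's exact test p = 0.30) and 1.21 for miR-29c (Fisher's exact test p = 0.46). The log2 ratios of miR-29a, miR-29b and miR-29c were -2.16, -1.32 and -0.94, against a median of 0.03 over all miRNAs tested. All of these values rest on NE35, the library with the kidney markers. Those kidney miRNAs were 0.50% of its miRNA reads, which is the share of the markers and not of all reads from that tissue. Other markers differed in this pair as well. Endothelial miRNAs summed to 4775 TPM in RE35 and 10188 TPM in NE35, and muscle miRNAs to 42582 TPM in RE35 and 28030 TPM in NE35. The part of these tissues in the miR-29 levels was not tested. In bulk tissue, fewer cells of a type and less of the miRNA per cell cannot be told apart.

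At 55 dg only miR-29a stood apart. It was 1.80-fold lower in RE55 than in NE55 (95% exact interval 1.57 to 2.07; Fisher's exact test p = 6.12e-19), the 26th lowest of 360 miRNAs tested, but its fold stayed under 2 and it was not among the 6.94% that passed. Its log2 ratio was -0.85 where the median miRNA had 0.21, a distance of -1.06. The ratio was 1.33 for miR-29b (0.60 to 2.90) and 0.84 for miR-29c (0.52 to 1.34), and both intervals included 1. Kidney miRNAs summed to 55.5 TPM in RE55 and 46.7 TPM in NE55, and to 66.1 TPM in RE90 and 58.1 TPM in NE90. NE35 does not enter this pair. Fibroblast genes summed to 651 RPKM in RE55 and 1511 RPKM in NE55, and muscle miRNAs to 128024 TPM in RE55 and 177616 TPM in NE55. Other markers went the other way. Muscle genes summed to 17435 RPKM in RE55 and 13504 RPKM in NE55, and endothelial miRNAs to 9913 TPM in RE55 and 8115 TPM in NE55. The part of these tissues in the difference of miR-29a was not tested.

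At 90 dg the direction was the opposite. miR-29a was 1.22-fold higher in RE90 than in NE90 (95% exact interval 1.10 to 1.35; Fisher's exact test p = 0.000133), with a log2 ratio of 0.28 where the median miRNA had 0.06. The ratio was 1.77 for miR-29b (0.75 to 4.61) and 1.10 for miR-29c (0.75 to 1.64). None of the 3 was among the 7.58% of 356 miRNAs that passed. The diet ratio of miR-29a thus went from far below 1 at 35 dg through below 1 at 55 dg to slightly above 1 at 90 dg, with 3 intervals that did not overlap each other.

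**Figure D2:**
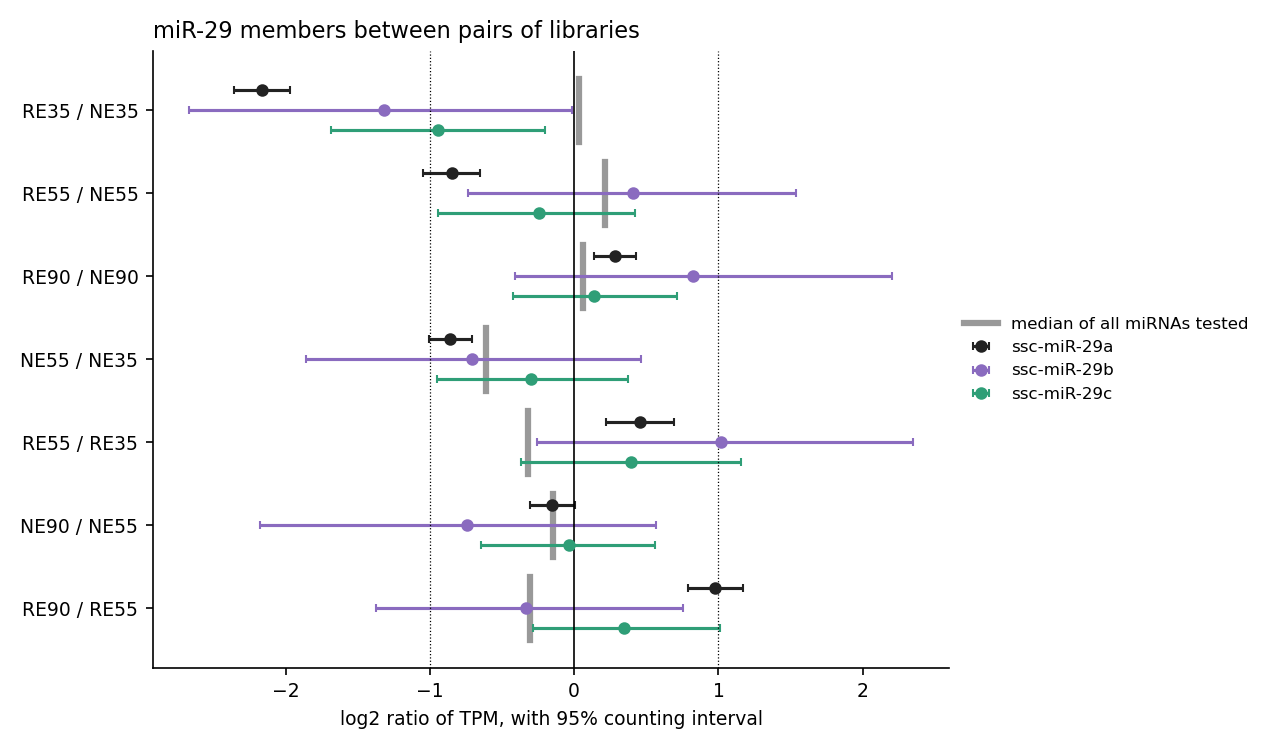
Log2 ratio of TPM of each member between pairs of libraries, first library over second, with 95% exact counting intervals; grey bars are the median of all miRNAs tested and dotted lines mark 2-fold. miR-29a is at -2.16 for RE35 over NE35, -0.85 for RE55 over NE55 and 0.28 for RE90 over NE90, and the intervals of miR-29b and miR-29c include 0 outside the first pair.

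The next comparison asks how the members developed with gestation within each diet. These ratios share libraries with the diet comparisons and with each other, so they are other views of the same 6 values. In normal fetuses miR-29a was 1.81-fold lower in NE55 than in NE35 (95% exact interval 1.64 to 2.01; Fisher's exact test p = 7.07e-30). The median miRNA was also lower in NE55, with a log2 ratio of -0.61 in TPM, and relative to it miR-29a stood at -0.25. miR-29a was not among the 51.8% of 388 miRNAs that passed. The ratio was 0.61 for miR-29b (0.28 to 1.38) and 0.81 for miR-29c (0.52 to 1.29).

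In restricted fetuses miR-29a went the other way between these stages. It was 1.37-fold higher in RE55 than in RE35 (95% exact interval 1.16 to 1.62; Fisher's exact test p = 0.000142), while the median miRNA had a log2 ratio of -0.32, so that relative to it miR-29a stood at 0.78. miR-29b had a ratio of 2.03 (0.84 to 5.10) and miR-29c of 1.32 (0.77 to 2.22), with intervals that included 1. None of the members was among the 37.7% of 390 miRNAs that passed. Scaled to clean small RNA reads, the log2 ratio of miR-29a was 0.10 in RE55 over RE35, and Fisher's exact test gave p = 0.43, so this difference depends on the scaling.

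Between 55 and 90 dg miR-29a was higher in restricted fetuses, and in normal ones the interval of its ratio included 1. The ratio of NE90 to NE55 was 0.90 (95% exact interval 0.808 to 1.003; Fisher's exact test p = 0.0554), at the median of all miRNAs, and under TMM and DESeq2 scaling its log2 value was 0.063 and 0.059. In restricted fetuses miR-29a was 1.97-fold higher in RE90 than in RE55 (1.73 to 2.25; Fisher's exact test p = 2.22e-27), which is 1.28 on the log2 scale above the median miRNA. Its fold lay just under 2, and it was above 2 under TMM, DESeq2 and clean-read scaling, with log2 ratios of 1.31, 1.31 and 1.20. miR-29b and miR-29c had intervals that included 1 in both pairs. No member was among the 7.52% of 359 miRNAs that passed between NE90 and NE55 or the 17.8% of 359 between RE90 and RE55. Over the 3 members and 7 pairs of libraries, 1 of 21 ratios passed both thresholds, that of miR-29a between RE35 and NE35, and without NE35 it was 0 of 15. Of the 21, 3 passed with TMM scaling, 2 with DESeq2 size factors and 2 with clean reads. In each of these scalings 1 of the 15 without NE35 did, namely miR-29a between RE90 and RE55. The additional ratio that passed with TMM was miR-29c between RE35 and NE35, at a log2 ratio of -1.02. For TMM and DESeq2 only the fold was rescaled, and Fisher's exact test stayed that on the unscaled reads. Counting intervals excluded 1 in 8 of the 21.

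A fit across all 6 libraries, edgeR's quasi-likelihood test with diet and stage as factors, called none of the 3 members in any contrast. It uses the libraries of the other diet or stages as replicates, and it tested 377 miRNAs, all 3 members among them. A diet difference that changes with stage has no term in this fit and counts as spread, so the fit cannot call it. For RE against NE over the stages, miR-29a had a log2 fold change of -0.96 (SE 0.56, edgeR adjusted p = 0.95), miR-29b of -0.06 (SE 0.53, edgeR adjusted p = 0.996) and miR-29c of -0.39 (SE 0.33, edgeR adjusted p = 0.95). By diet 0% of miRNAs passed at an adjusted p under 0.05; the unadjusted p was under 0.05 for 9, and with DESeq2 0 passed. Leaving out 1 library at a time, the value of miR-29a ran between -1.60 without NE90 and -0.44 without RE35, and stayed negative.

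By stage the fit also called no member. For 90 against 35 dg the log2 fold change was 0.70 for miR-29a (SE 0.68, edgeR adjusted p = 0.46) and 0.70 for miR-29c (SE 0.41, edgeR adjusted p = 0.23), and 0.14 for miR-29b (SE 0.65, edgeR adjusted p = 0.89), while 36.3% of miRNAs passed. The value of miR-29a was -0.26 without RE90 and -0.078 without RE35, and that of miR-29b -0.57 and -0.69, so these signs rest on those libraries. For 55 against 35 dg miR-29a was at -0.11 (SE 0.65, edgeR adjusted p = 0.91), while 27.6% passed. This value was 0.91 without NE35, 0.066 without RE55, 0.020 without NE90 and 0.026 without RE90, so its sign is not settled. For 90 against 55 dg miR-29a was at 0.82 (SE 0.65, edgeR adjusted p = 0.74), and 0% of miRNAs passed, with 21 at an unadjusted p under 0.05 and 3 called by DESeq2. Without RE90 this value was -0.29. In the same contrast miR-29b was at -0.17 (SE 0.63, edgeR adjusted p = 0.91) and miR-29c at 0.45 (SE 0.40, edgeR adjusted p = 0.74).

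The miRNAs whose 6 levels were most like those of the members were then listed, over miRNAs with at least 10 reads in each library, by the correlation of log2(TPM + 1). These are correlations over 6 libraries that share their depth and scaling, given as a description. For miR-29a the nearest of 308 miRNAs was miR-30a-5p (r = 0.988), followed by miR-29c (r = 0.975) and miR-143-3p (r = 0.971). miR-30a-5p is abundant in many tissues, and it had 3510 TPM in RE35 and 17680 TPM in NE35, 5546 TPM in RE55 and 8596 TPM in NE55, and 9552 TPM in RE90 and 9433 TPM in NE90. Like miR-29a it was lowest in RE35, next lowest in RE55 and highest in NE35, with the 3 remaining libraries close together. NE35 is also the library with the kidney markers, and the part of other tissues in this likeness was not tested. For miR-29c the nearest were miR-143-3p (r = 0.999), a miRNA known from smooth muscle and fibroblasts, then miR-30a-5p (r = 0.976) and miR-29a (r = 0.975).

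miR-29b kept other company. Its r was 0.537 with miR-29a and 0.576 with miR-29c. Of 309 miRNAs, the 3 nearest to it were a predicted miRNA with no family name (r = 0.976), miR-126-5p (r = 0.975) and miR-652 (r = 0.819). miR-126-5p, which endothelial cells express, had 1365 TPM in RE35 and 2696 TPM in NE35, 2321 TPM in RE55 and 1667 TPM in NE55, and 1681 TPM in RE90 and 1288 TPM in NE90. The predicted miRNA had 1.01 to 1.02 times the TPM of miR-126-5p in every library, so whether these are separate molecules is uncertain. In TPM both miR-29b and miR-126-5p were higher in RE55 than in NE55, unlike miR-29a. The interval of that miR-29b ratio included 1 (0.60 to 2.90), and miR-126-5p was picked for its likeness, so the shared direction is description only. With 8 to 21 reads per library, the order of miR-29b itself is not fixed by these data.

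**Figure D3:**
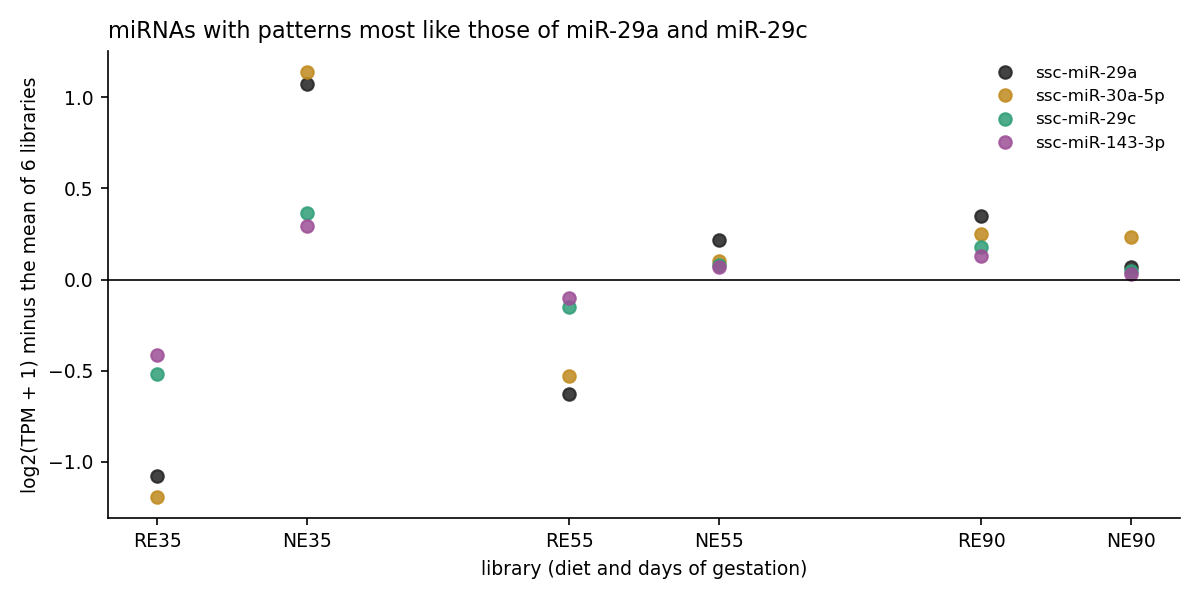
Log2(TPM + 1) of miR-29a, miR-30a-5p, miR-29c and miR-143-3p in each small RNA library, minus the mean of the 6 libraries of the same miRNA. All 4 are lowest in RE35 and highest in NE35, and miR-29a and miR-30a-5p (r = 0.988) spread further than miR-29c and miR-143-3p (r = 0.999).

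The mRNA libraries show what the genes known as miR-29 targets did in the same groups. Lists of targets were taken from general knowledge of mammals and chosen with earlier results of these data known, and they describe mRNA levels only. Ratios between 2 libraries are on the log2 scale, from CPM after TMM scaling (prior count 2), and have no test. Of 14 collagens listed as targets, 11 had an identifier that could be matched to a symbol. COL1A1, COL4A1 and the non-matrix target MCL1 were among the genes that could not be matched and are named only.

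At 35 dg, where miR-29a was lower in RE35, 10 of the 11 collagen targets had a positive log2 ratio and 1 a negative one, with a median of 0.46 against 0.01 over all genes. More than 2-fold higher were 3 of the 11, where 3.71% of 13085 genes were, and more than 2-fold lower were 0, where 9.22% of genes were. With RPKM and a pseudocount of 0.1 or 1, only 1 of the 11 was more than 2-fold higher. COL1A2, a chain of type I collagen, had 444 RPKM in RE35 and 366 RPKM in NE35 (log2 ratio 0.41), and COL3A1, type III collagen, 854 RPKM in RE35 and 709 RPKM in NE35 (0.39). The basement membrane collagen COL4A2 had a log2 ratio of 0.23, and the type V chains COL5A1 and COL5A2 of 0.47 and 0.38. The genes past 2-fold were COL2A1, with 64.1 RPKM in RE35 and 14.4 RPKM in NE35 (log2 ratio 2.28), COL11A1, with 161 RPKM in RE35 and 87.1 RPKM in NE35 (1.01), and COL8A1, with 37 reads in RE35 and 17 reads in NE35 (1.09). COL2A1 and COL11A1 are cartilage collagens. COL2A1 is itself on the list of cartilage markers, and of the 6 other cartilage markers 5 were highest in RE35, with a sum of 207 RPKM in RE35 and 43.8 RPKM in NE35. Their part in the list's median was not tested.

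Other matrix genes listed as targets were at similar values. Of 9 measured, 8 had a positive ratio at 35 dg, with a median of 0.37 against 0.01 over all genes. None was past 2-fold, where 3.71% of 13085 genes were higher and 9.22% lower. ELN, elastin, was at 0.47, FBN1, fibrillin, at 0.24, and SPARC, a collagen-binding matrix protein, at 0.18, while NID1, a linker of basement membranes, was the highest at 0.78. The 5 matched collagens outside the target list had 4 positive ratios and a median of 0.26, so higher ratios in RE35 were not limited to listed targets. COL6A2 was the highest of these at 0.61 and COL14A1 was at -0.30. Fibroblast genes summed to 930 RPKM in RE35 and 846 RPKM in NE35.

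At 55 dg, where miR-29a was again lower under restriction, the collagen targets did not lean one way. Of 11 measured, 4 had a positive and 7 a negative log2 ratio, with a median of -0.04 against -0.00043 over all genes. The sign of this median depends on the scaling. With RPKM and a pseudocount of 0.1 or 1 the median of the 11 was 0.09, at -0.03 and -0.003 from that of all genes. None was more than 2-fold higher, where 9.05% of 12536 genes were, and 2 were more than 2-fold lower, where 11.7% of genes were. COL1A2 had 348 RPKM in RE55 and 329 RPKM in NE55 (log2 ratio -0.05), and COL3A1 905 RPKM in RE55 and 811 RPKM in NE55 (0.03). RPKM carry no TMM scaling, so COL1A2 was higher in RE55 by RPKM and not by its log2 ratio. COL5A1 had 135 RPKM in RE55 and 73.3 RPKM in NE55 (0.76) and COL5A3 51.3 RPKM in RE55 and 26.4 RPKM in NE55 (0.83), whereas COL5A2 was at -0.40. The 2 lower genes were COL11A1, with 25.5 RPKM in RE55 and 71.3 RPKM in NE55 (-1.61), and COL8A1, with 4 reads in RE55 and 14 reads in NE55 (-1.64).

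The other matrix targets were split at 55 dg as well, with 5 of 9 positive and a median of 0.12. MMP2, a gelatinase, had 318 RPKM in RE55 and 163 RPKM in NE55 (log2 ratio 0.84). LOX, the enzyme that crosslinks collagen and elastin, had 2.77 RPKM in RE55 and 6.91 RPKM in NE55 (-1.42). ELN was at 0.20, FBN1 at -0.17 and SPARC at 0.12. Fibroblast genes summed to 651 RPKM in RE55 and 1511 RPKM in NE55, and their part in these ratios was not tested.

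At 90 dg the collagen targets were higher in RE90, where miR-29a was also slightly higher. All 10 measured had a positive log2 ratio, with a median of 1.01 against 0.07 over all genes. More than 2-fold higher were 6 of the 10, where 10.1% of 12426 genes were, and more than 2-fold lower were 0, where 7.42% of genes were. With DESeq2 size factors 4 of the 10 were more than 2-fold higher, and with RPKM and a pseudocount of 0.1 or 1 it was 7. COL5A2 and COL15A1 lay just past the cut, both at 1.01. COL1A2 had 374 RPKM in RE90 and 202 RPKM in NE90 (log2 ratio 0.64), COL3A1 866 RPKM in RE90 and 423 RPKM in NE90 (0.78), and COL4A2 185 RPKM in RE90 and 67.1 RPKM in NE90 (1.21). COL6A3, a chain of type VI collagen, had 76.2 RPKM in RE90 and 24.5 RPKM in NE90 (1.38). COL11A1 had 52.7 RPKM in RE90 and 12.2 RPKM in NE90 (1.86), and COL2A1 4.39 RPKM in RE90 and 0.40 RPKM in NE90 (3.13), beside cartilage genes that without COL2A1 summed to 26.1 RPKM in RE90 and 3.62 RPKM in NE90. NE90 was the lowest of the 6 mRNA libraries for COL1A2, COL3A1, COL4A2, COL5A1, COL5A2, COL6A3 and COL11A1.

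Most other matrix genes were also positive at 90 dg. Of the other matrix targets 8 of 9 were positive, with ADAM12 at -0.11 and a median of 0.68 against 0.07 over all genes. More than 2-fold higher were 4 of the 9, where 10.1% of 12426 genes were. None was more than 2-fold lower, where 7.42% of genes were. The 4 were LOX (1.44), PDGFRB, a growth factor receptor of mesenchymal cells (1.33), LAMC1, a laminin chain (1.10), and ELN (1.08). FBN1 was at 0.51 and SPARC at 0.09. The 5 collagens outside the target list were also all positive, with a median of 0.74, and COL6A2 was at 1.18 and COL6A1 at 1.11. Fibroblast genes summed to 767 RPKM in RE90 and 612 RPKM in NE90. Set side by side, the collagen targets had medians of 0.46, -0.04 and 1.01 at 35, 55 and 90 dg where the log2 ratios of miR-29a were -2.16, -0.85 and 0.28.

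**Figure D4:**
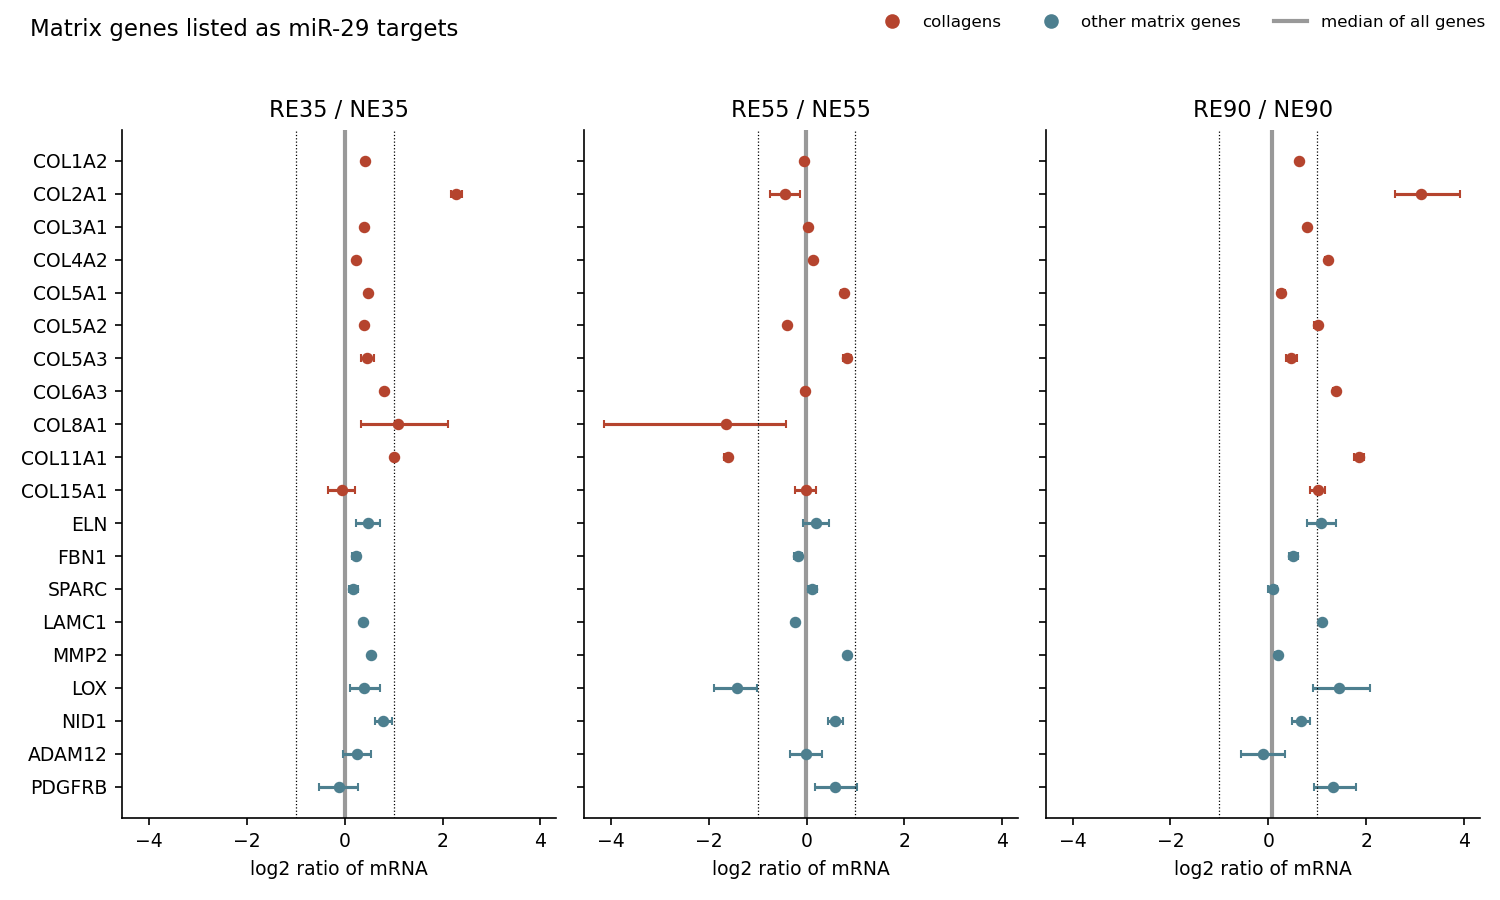
Log2 ratio of mRNA, RE over NE, at 35, 55 and 90 dg for 11 collagens and 9 other matrix genes listed as miR-29 targets; whiskers are 95% counting intervals, grey lines the median of all genes and dotted lines 2-fold. At 35 dg most genes lie right of the median by less than 2-fold, at 55 dg they fall on both sides (collagen median -0.04), and at 90 dg all 10 measured collagens lie right of it (median 1.01); COL8A1 is not drawn at 90 dg, where it had no reads.

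Targets outside the matrix had both signs at each stage. Of 18 measured, 11 were positive at 35 dg (median 0.25), 7 at 55 dg (median -0.19) and 15 at 90 dg (median 0.45). The medians over all genes were 0.01, -0.00043 and 0.07. DNMT3A, a de novo DNA methyltransferase, had log2 ratios of 0.21, -0.36 and 0.40 at 35, 55 and 90 dg, and DNMT3B of -0.02, 0.40 and 0.04. The largest ratios were those of TET1, which removes DNA methylation, at 1.48, -1.59 and 2.24, but it had 20 reads in RE35 and 6 reads in NE35, 3 reads in RE55 and 11 reads in NE55, and 18 reads in RE90 and 2 reads in NE90. VEGFA, the vascular growth factor, had 19.9 RPKM in RE35 and 46.1 RPKM in NE35 (-1.08), and PDGFC had 27.1 RPKM in RE55 and 48.0 RPKM in NE55 (-0.95).

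Genes reported to control transcription of the miR-29 genes were also read. The cytokine gene TGFB1, known to repress miR-29 through SMAD3, had 4.59 RPKM in RE35 and 6.45 RPKM in NE35 (log2 ratio -0.36), 5.02 RPKM in RE55 and 4.66 RPKM in NE55 (-0.02), and 6.70 RPKM in RE90 and 3.08 RPKM in NE90 (0.87). SMAD3 was at 0.38, -0.12 and 0.12, MYC, also a repressor, at 0.18, 0.23 and 0.18, and RELA, an NF-kappa B subunit, at 0.20, 0.65 and 0.70. CEBPA, a reported activator, had 13 reads in RE35 and 53 reads in NE35 (-1.80). Of the 6 measured regulators, 4, 4 and 6 had a positive ratio at 35, 55 and 90 dg. Their medians were 0.19, 0.26 and 0.22, against 0.01, -0.00043 and 0.07 over all genes.

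Over the 6 mRNA libraries, edgeR's quasi-likelihood test by diet called 0 of the 11 collagen targets, 0% of 12872 genes passing, with 301 genes at an unadjusted p under 0.05 and 3 genes called by DESeq2. Of the collagen targets, COL2A1 alone had an unadjusted p under 0.05. By stage a few collagens passed. For 55 against 35 dg, COL5A3 rose, with a log2 fold change of 1.63 (SE 0.37, edgeR adjusted p = 0.0456), where 1.96% of genes passed; its adjusted p was 0.77 without NE35, 0.44 without RE35 and 0.0893 without normalization beyond totals. For 90 against 35 dg, COL15A1, a basement membrane collagen of muscle and vessels, rose by 2.17 on the log2 scale (SE 0.41, edgeR adjusted p = 0.00924), where 7.25% of genes passed, and its adjusted p was 0.13 without RE35 and 0.0530 without RE90. COL2A1 fell by 3.87 on the same scale (SE 0.70, edgeR adjusted p = 0.00696) and passed in all 10 alternatives. COL8A1 fell as well (edgeR adjusted p = 0.0309; 0.12 without RE35), with 0 reads in RE90 and NE90 against 37 reads in RE35 and 17 reads in NE35, which is at least 6.95-fold lower at 90 dg, taking 3 counts per library as the floor. For 90 against 55 dg none of the 11 passed, with 3 at an unadjusted p under 0.05, 0% of genes passed, and DESeq2 also called 0 of the 11.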

How the data were processed

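The authors ligated adaptors to total RNA, sequenced the small RNA fraction, trimmed reads to 16 to 26 nt and counted mature miRNAs, with new ones predicted by miRDeep2; mRNA reads were mapped with TopHat2 to Sscrofa10.2 and reads with more than 1 location discarded. The deposited values used were miRNA read counts and TPM, and gene read counts and RPKM, computed by the authors. The deposited TPM equal reads scaled to 1000000 of the miRNA column total (within 0.0153%). Table columns named SE were read as RE. Of 19158 gene IDs, 11010 matched a symbol.

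Pairs of libraries were compared over miRNAs with at least 10 reads in 1 of the 2 by two-sided Fisher's exact test (p under 0.01, fold above 2) with exact conditional intervals. edgeR 4.0.16 (quasi-likelihood, TMM, diet and stage as factors, 2 residual degrees of freedom) tested, where 2 or more libraries reached the minimum, miRNAs of 10 reads and genes of 1 CPM or more, with Benjamini-Hochberg adjustment. DESeq2 1.42.0, other scalings, filters and leaving out each library were alternatives; tallies by scaling and cartilage markers without COL2A1 were added after seeing the data. Scripts were tested on simulated data. Members and lists were chosen with earlier results of these data known. Named genes were all members, 13 targets always given, and in each list up to 3 genes with the largest ratio in a comparison. The p-values of Fisher's exact test measure read counting between 2 libraries only. Those of the fits measure the spread of the libraries left after diet and stage. The fits have no term for a diet difference that changes with stage, so it counts in that spread and cannot be called. The groups came from different sows, but how fetuses entered a library is not given. Neither kind of p-value measures the spread between fetuses of a group.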

Additional observations from a re-analysis of the deposited data

Results flagged for a closer look

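The diet ratio of miR-29a was of opposite sign across stages. Its log2 ratio was -2.16 for RE35 against NE35 and -0.85 for RE55 against NE55, and 0.28 for RE90 against NE90, with counting intervals that excluded 0 in each. The change between 35 and 55 dg was of opposite sign between the diets, with a log2 ratio of 0.46 for RE55 against RE35 and -0.86 for NE55 against NE35. Scaled to clean small RNA reads, the value for RE55 against RE35 was only 0.10. Relative to the median miRNA, that for NE55 against NE35 was only -0.25. The pairs share libraries, each rests on 1 library a group, and the difference between stages or diets was not tested. NE35, which enters both patterns, held the kidney markers. The opposite sign between 55 and 90 dg does not use NE35, and the part of other tissues in any of these ratios was not tested.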

How the results depend on the processing

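The lower miR-29a of RE35 kept its direction and its call in all 4 alternatives of scaling and pseudocount, with log2 ratios between -2.24 (TMM) and -1.50 (clean reads). The ratio of miR-29a for RE90 against RE55 passed 2-fold with 1.31 (TMM), 1.31 (DESeq2 size factors) and 1.20 (clean reads). That of miR-29c for RE35 against NE35 passed 2-fold with -1.02 (TMM). For NE90 against NE55 the sign turned for miR-29a with TMM (0.063) and DESeq2 size factors (0.059), and for miR-29c with the same scalings (0.18 and 0.17); for NE55 against NE35 it turned for miR-29c with DESeq2 size factors (0.20) and clean reads (0.10). None of these turned values was called.

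In the fit over 6 libraries miR-29a, 55 against 35 dg, turned to 0.0578 with DESeq2, 0.0577 with RLE and 0.14 with no filter, and miR-29b, 90 against 35 dg, to -0.35 without normalization. Leaving out 1 library, miR-29a ran from -0.74 to 0.91 for 55 against 35 dg, from -0.29 to 1.60 for 90 against 55 dg and from -0.26 to 1.62 for 90 against 35 dg; miR-29b ran from -0.43 to 1.24, from -0.91 to 0.40 and from -0.69 to 0.98, and from -0.49 to 0.43 by diet; miR-29c ran from -0.021 to 0.64 for 55 against 35 dg. No member passed in any of these fits.

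Called miRNAs for NE90 against NE55 were 16 with at least 50 reads, against 27. Passing miRNAs for 90 against 55 dg were 3 with DESeq2. Leaving out 1 library, passing miRNAs were 0 to 138 for 55 against 35 dg, 0 to 7 for 90 against 55 dg, 0 to 112 for 90 against 35 dg and 0 to 1 by diet. Passing collagen targets for 55 against 35 dg were 2 with DESeq2 and 2 with no filter, and for 90 against 35 dg 6 without normalization; leaving out 1 library they were 1 to 3, 1 to 5, 0 to 3 for 90 against 55 dg and 0 to 1 by diet. Collagen targets more than 2-fold higher in RE35 were 1 with RPKM at either pseudocount, 0.1 or 1. Those in RE90 were 4 with DESeq2 size factors and 7 with RPKM at either pseudocount, against 6. For RE55 against NE55 the median log2 ratio of collagen targets was 0.09 with RPKM at either pseudocount, against -0.04.

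The diet test compares RE with NE within stages, since stage is a factor in it. The labels carry no replicate numbers for any further pairing. With 1 library a group, depth limits miR-29b and miR-29c to intervals wider than 2-fold on most ratios, and differences between fetuses were not measured.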
